A study of Mus musculus with 11 samples.

Results

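The genes that build the epithelial basement membrane and the integrins that bind it were followed through the accessible chromatin of the pubertal mouse mammary gland. The set held 36 genes named by function: 10 laminin chains, 4 collagen IV chains, Col17a1, 5 linkers and proteoglycans (Nid1, Nid2, Hspg2, Agrn and Col18a1), 9 integrin alpha chains, 6 integrin beta chains and Dag1. Their peaks were those that overlapped a gene body or lay within 10 kb of a transcription start site (TSS) in the mm10 assembly, and this gave 564 of the 153396 peaks with counts. Of these, 45 were promoter peaks (within 500 bp of a TSS of the gene) and 519 were other peaks, with 404 in introns, 67 in exons and 48 upstream. Every gene had a promoter peak, but Col4a1 and Col4a2 share 1 and Col4a3 and Col4a4 share 1, since each pair is transcribed in opposite directions from a common start region. In 10 genes more than 1 promoter peak was present.

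Accessibility was measured by ATAC-seq, in which a transposase cuts and tags open chromatin, in epithelial cells of 5-week-old C57BL/6 females carrying an Ecadherin-GFP reporter, an allele that all groups share. Terminal end buds (TEBs, the growing tips) and the ducts behind them were dissected under GFP guidance, and cells depleted of Ter119, CD31 and CD45 were sorted as CD29+CD24+ with high (luminal) or low (basal) GFP. No treatment was given. There were 3 libraries each of basal TEB, luminal TEB and luminal duct cells and 2 of basal duct cells (replicates 1 and 3), described as biological replicates, and a further basal duct sample is not analysed here. The sources used here do not say whether libraries of different groups share mice. CD29 is the protein of Itgb1, a gene of the set, so that protein was used in the gate of every group.

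The basement membrane is a thin sheet under the epithelium in which laminin trimers and a collagen IV network are tied together by nidogens, perlecan (Hspg2), agrin and collagen XVIII. In the mammary gland the basal, myoepithelial cells sit directly on this sheet and luminal cells touch it less. Integrins are alpha-beta dimers that bind it from the cell side, and the alpha6-beta4 dimer together with collagen XVII anchors cells to it in hemidesmosomes.

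The sequences of 4 promoters are shown because they span the range of the lineage difference, from Col17a1 and Nid1, through the start region shared by Col4a1 and Col4a2, to Itgb1. They are RefSeq promoters on GRCm38.p6, 300 bases each and 5′ to 3′ on the strand of the gene, namely chr19:47691993-47692292 (minus strand), chr13:13437352-13437651 (plus), chr8:11312555-11312854 (plus, the Col4a2 side) and chr8:128685404-128685703 (plus). Capitals mark matches on either strand to any of 8 motifs: TEAD GGAATG, AP-1 TGANTCA, the GC box GGGCGG, the CCAAT box, RUNX TGTGGT, FOX TGTTTAC, a p63/p53 half-site and the SRF CArG box.
Col17a1: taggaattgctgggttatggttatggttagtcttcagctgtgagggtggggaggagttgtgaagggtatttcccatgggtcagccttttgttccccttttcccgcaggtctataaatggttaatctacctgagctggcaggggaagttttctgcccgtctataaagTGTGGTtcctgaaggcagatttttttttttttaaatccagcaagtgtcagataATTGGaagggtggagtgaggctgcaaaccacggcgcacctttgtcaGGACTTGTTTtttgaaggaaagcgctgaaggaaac
Nid1: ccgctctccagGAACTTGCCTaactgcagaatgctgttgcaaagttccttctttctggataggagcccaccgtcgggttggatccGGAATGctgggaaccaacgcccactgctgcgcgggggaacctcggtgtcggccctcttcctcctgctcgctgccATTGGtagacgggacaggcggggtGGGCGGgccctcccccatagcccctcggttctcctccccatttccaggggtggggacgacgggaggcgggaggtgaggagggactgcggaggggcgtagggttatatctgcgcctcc
Col4a2: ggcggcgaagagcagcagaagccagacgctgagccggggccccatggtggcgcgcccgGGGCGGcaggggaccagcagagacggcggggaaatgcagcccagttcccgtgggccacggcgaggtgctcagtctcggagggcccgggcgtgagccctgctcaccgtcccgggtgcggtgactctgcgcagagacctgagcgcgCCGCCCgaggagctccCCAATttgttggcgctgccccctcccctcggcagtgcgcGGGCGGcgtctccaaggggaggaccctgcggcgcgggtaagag
Itgb1: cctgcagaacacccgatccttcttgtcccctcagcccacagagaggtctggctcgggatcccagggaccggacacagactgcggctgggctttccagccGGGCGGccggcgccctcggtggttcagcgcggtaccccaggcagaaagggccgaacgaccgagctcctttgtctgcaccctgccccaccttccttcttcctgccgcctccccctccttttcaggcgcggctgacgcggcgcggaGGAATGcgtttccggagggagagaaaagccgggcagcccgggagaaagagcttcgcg
A GC box lay in 61.3% of the 31 RefSeq promoter windows found for 25 of the genes, and in 35.7% of all 32851 such windows. The Col17a1 promoter held none. A TEAD match was present in 12.9% of the member windows and 14.7% of all, and a FOX match in 0 of 31 member windows and 3.65% of all. These are matches of letters only.

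A set of 4 windows of 300 bases at the centre of non-promoter peaks is shown because these peaks, described below, had large lineage differences in both directions. They are given on the plus strand of GRCm38, with the same capitals: a Hspg2 exon peak (chr4:137511963-137512262), a Col4a2 intron peak (chr8:11343047-11343346), an Itgb6 intron peak (chr2:60694652-60694951) and a Nid1 intron peak (chr13:13471423-13471722). The first pair was more accessible in basal cells and the second pair in luminal cells.
Hspg2 exon peak: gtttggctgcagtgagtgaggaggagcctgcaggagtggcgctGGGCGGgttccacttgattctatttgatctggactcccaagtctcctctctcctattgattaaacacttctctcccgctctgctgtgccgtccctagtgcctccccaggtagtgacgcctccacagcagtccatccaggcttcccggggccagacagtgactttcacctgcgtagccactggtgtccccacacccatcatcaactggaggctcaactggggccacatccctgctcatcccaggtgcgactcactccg
Col4a2 intron peak: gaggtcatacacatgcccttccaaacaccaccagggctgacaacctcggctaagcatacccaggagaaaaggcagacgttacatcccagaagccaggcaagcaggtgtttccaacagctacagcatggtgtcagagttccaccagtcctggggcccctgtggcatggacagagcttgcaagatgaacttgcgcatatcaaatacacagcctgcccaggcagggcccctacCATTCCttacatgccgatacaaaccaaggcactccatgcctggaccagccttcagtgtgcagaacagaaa
Itgb6 intron peak: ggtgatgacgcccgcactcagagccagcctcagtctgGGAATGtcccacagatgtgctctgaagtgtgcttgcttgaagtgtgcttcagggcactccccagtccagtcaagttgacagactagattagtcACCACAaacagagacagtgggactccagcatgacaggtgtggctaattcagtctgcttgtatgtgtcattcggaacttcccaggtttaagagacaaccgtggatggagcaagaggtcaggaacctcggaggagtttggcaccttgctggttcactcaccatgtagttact
Nid1 intron peak: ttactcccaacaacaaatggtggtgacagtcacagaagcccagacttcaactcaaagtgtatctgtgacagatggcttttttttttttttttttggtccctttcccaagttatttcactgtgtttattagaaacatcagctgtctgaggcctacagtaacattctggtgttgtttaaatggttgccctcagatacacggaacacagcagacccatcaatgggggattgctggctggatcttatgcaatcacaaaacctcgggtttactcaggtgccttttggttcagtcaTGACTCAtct

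Depth in peaks ran from 1821942 counts (a basal TEB library) to 9986384 (a basal duct library), and the median count of a non-promoter member peak was 7 to 8 in basal TEB and 26 to 32 in basal duct libraries. The share of counts in member peaks was 0.472% to 0.477% in basal duct, 0.414% to 0.470% in basal TEB, 0.272% to 0.279% in luminal duct, and for luminal TEB libraries 0.291% to 0.306%, so that basal and luminal libraries did not overlap. The share of counts in soft-masked (repeat) peaks was lowest in the basal duct libraries, at 2.40% and 2.45%. Luminal duct libraries had 4.69%, 4.46% and 5.96%. Basal TEB libraries had 16.2%, 7.03% and 9.75%, and these overlapped the luminal TEB libraries, which had 6.82%, 5.58% and 7.21%. Markers went with the labels: the summed promoter level of 7 basal markers was 223 to 247 CPM (the read count relative to library size, TMM-scaled over all 11 libraries) in basal duct, 111 to 161 in basal TEB, 27.4 to 32.5 in luminal duct libraries, and 32.4 to 37.4 for luminal TEB. That of 8 luminal markers was 126 to 141, 70.0 to 79.8, 256 to 320 and 243 to 295 CPM in the same order. Fibroblasts and vessels also make basement membrane, and promoters of their markers moved with the basal groups. Of 8 fibroblast markers 5 had a promoter peak (Col1a1, Col3a1 and Lum had none), with a sum of 139 to 158 CPM in basal duct, 64.9 to 87.3 in basal TEB, 23.1 to 24.7 in luminal duct libraries, and 20.2 to 24.1 for luminal TEB. Of 7 endothelial markers only Kdr and Sox18 had one (25.2 to 28.7, 17.6 to 22.5, 4.45 to 7.31 and 4.92 to 7.57 CPM), while Pecam1, Cdh5, Tie1, Tek and Emcn, which define the type, had none. The sums of 4 pericyte promoters (30.5 to 36.1, 19.9 to 27.1, 15.5 to 17.5 and 17.0 to 21.7 CPM) and 3 Schwann cell promoters (47.3 to 50, 28.6 to 40.7, 21.9 to 31.0 and 23.4 to 24.7 CPM) were also highest in basal duct, and those of 2 immune promoters (11.3 to 13.2, 5.62 to 9.78, 12.5 to 14.2 and 9.29 to 14.5 CPM) and of the 1 adipocyte promoter (13.1 to 14.2, 6.21 to 12.3, 13.3 to 19.0 and 12.6 to 16.8 CPM) were not. The part of such cells in the results below was not tested.

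Ducts were compared first, to ask which lineage holds the basement membrane genes open. Most of their promoters were more accessible in basal than in luminal duct cells, and none was less so. Of 45 promoter peaks 36 (80.0%) were higher in basal duct libraries (edgeR exact test, adjusted p under 0.05), against 43.8% of all promoter peaks, and 0 were lower, against 12.0%. The count lower at an unadjusted p under 0.05 was also 0, while other scalings gave up to 3. The median log2 fold change was 1.26 in the set and 0.35 over all promoter peaks. By gene, taking the most accessible promoter peak of each, 27 of 36 were higher: 16 of 20 matrix genes and 11 of 15 integrins. A larger value can mean that more cells are open at the site or that each cell is open more often, and these cannot be told apart in bulk libraries. With TMM factors from promoter peaks, with loess or GC-bin offsets and with DESeq2, 20 of the 27 kept the call. Lamc1, Lama5, Itga2, Itga3, Itga7, Itgb4 and Itgb5 did not, and Agrn and Itgb1 were lower in basal cells under TMM factors from promoter peaks and under GC-bin offsets.

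**Figure D1:**
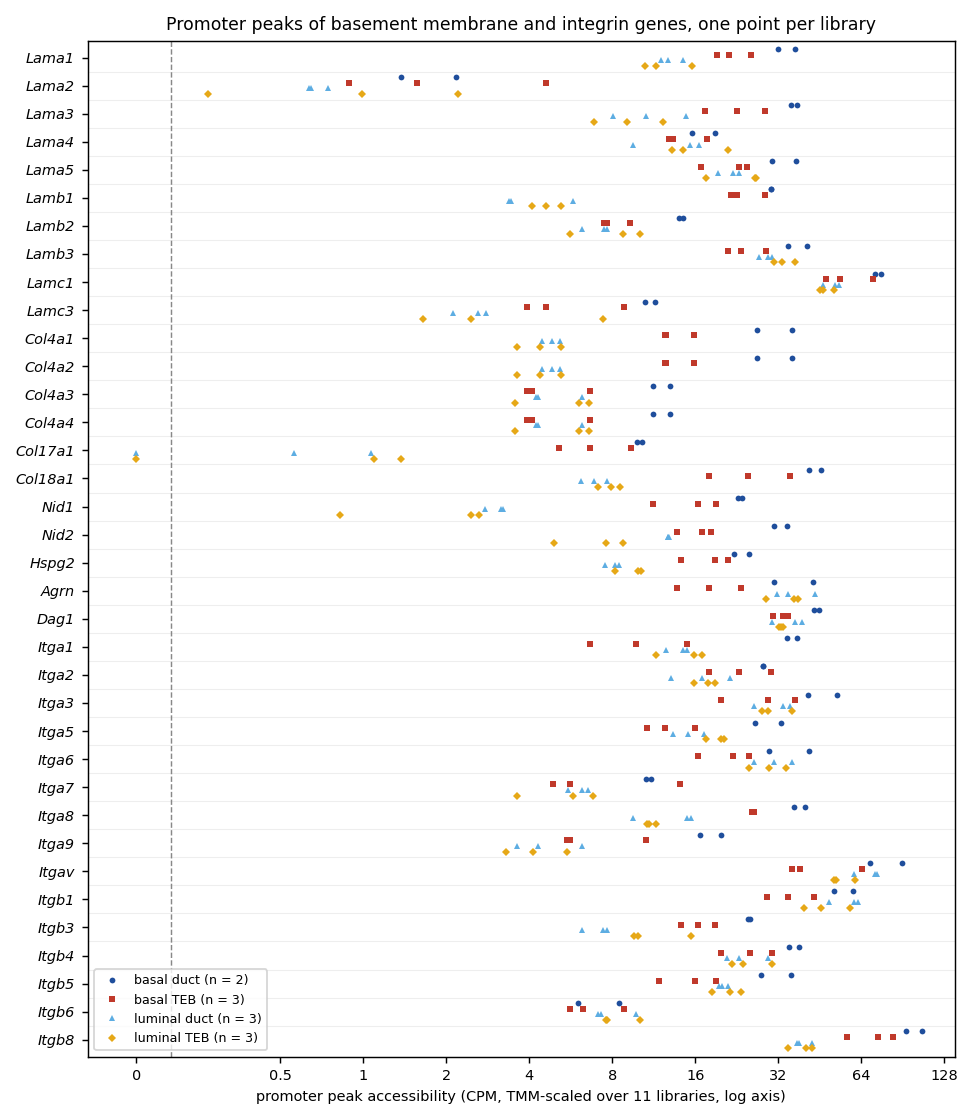
Each point is the accessibility of 1 gene's promoter peak in 1 library (CPM, TMM-scaled over 11 libraries, log axis with 0 drawn left of the dashed line), coloured by group. Col17a1 reaches 0 in 1 luminal duct and 1 luminal TEB library, and the Lamb1, Nid1, Col18a1 and shared Col4a1 and Col4a2 promoters leave a wide gap between basal and luminal libraries, while Itgb1 and Dag1 lie close together.

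The laminin chain genes were split. Lamb1, a beta chain of several laminin trimers, had the clearest difference: its promoter was at 30.1 and 30.2 CPM in basal duct libraries and at 3.39, 5.78 and 3.44 CPM in luminal duct libraries. The groups lay far apart, with a log2 fold change of 2.75 ± 0.24 (SE between libraries, scaled within the pair compared, as for all fold changes here; edgeR adjusted p = 7.6e-34). Lama3, the alpha chain of the epithelial laminin found under hemidesmosomes, was at 37.4 and 35.6 CPM in basal duct and 8.06, 10.6 and 14.8 CPM in luminal duct libraries (1.65 ± 0.25, edgeR adjusted p = 2.3e-17). Its second promoter peak, at the start of the longer transcripts, differed in the same direction (1.04 ± 0.08, edgeR adjusted p = 2.6e-06). Lamb3, the beta chain that pairs with Lama3, did not pass the test. Its promoter was at 40.6 and 34.8 CPM in basal duct and 29.3, 30.4 and 27.3 CPM in luminal duct libraries, groups that did not overlap but differed by only 0.32 ± 0.11 (edgeR adjusted p = 0.074). Thus both chains of this laminin were open in luminal cells as well, Lamb3 at nearly the basal level.

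Among the other laminins, the promoters of Lama1 (34.4 ± 3.56 CPM in basal duct, SD, n = 2, and 13.0 ± 1.20 in luminal duct, n = 3), Lamc3 (10.9 ± 0.648 and 2.51 ± 0.348) and Lamb2 (14.2 ± 0.320 and 7.11 ± 0.764) were higher in basal duct cells. Lama5, the widespread alpha chain of adult epithelia (33.8 ± 4.70 and 21.5 ± 1.94), and Lamc1, the gamma chain common to most laminins (73.7 ± 2.55 and 50.4 ± 3.52), were higher by 0.60 ± 0.15 and 0.49 ± 0.06 on the log2 scale. Lama2, the muscle and nerve alpha chain, was barely open in any group (1.76 ± 0.558 and 0.676 ± 0.0613 CPM) and was not called. For Lama4, the vessel alpha chain, the main promoter peak was not called (17.2 ± 2.25 and 13.8 ± 3.74 CPM). Its second promoter peak was called higher in basal duct cells. That call ended with GC-bin offsets (0.61), with TMM factors from promoter peaks (0.59) and without basal duct replicate 3 (0.76).

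All 4 collagen IV genes were more accessible in basal duct cells. The start region shared by Col4a1 and Col4a2, the chains of every basement membrane, was at 35.8 and 26.7 CPM in basal duct and at 4.45, 4.85 and 5.16 CPM in luminal duct libraries (2.64 ± 0.21, edgeR adjusted p = 4.6e-32). That of Col4a3 and Col4a4, chains of more restricted membranes, was lower in all groups (12.1 ± 1.23 and 4.92 ± 1.14 CPM) and differed by 1.25 ± 0.19 (edgeR adjusted p = 3.7e-06). Because 1 peak serves each pair, these are 2 measurements and not 4.

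The linker genes held the smallest adjusted p of the promoter peaks in the set. Col18a1, which encodes the heparan sulfate proteoglycan collagen XVIII, has 2 start regions. The internal one was at 27.0 and 23.4 CPM in basal duct and 1.06, 2.24 and 1.29 CPM in luminal duct libraries (3.94 ± 0.28, edgeR adjusted p = 4.9e-44), and the outer one at 45.9 and 41.4 CPM against 7.63, 6.16 and 6.88 CPM (2.61 ± 0.11, edgeR adjusted p = 4.8e-39). Neither overlapped between lineages. Nid1 (2.86 ± 0.07), Nid2 (1.30 ± 0.07) and Hspg2 (1.49 ± 0.09) were also higher in basal duct cells, Nid1 from 22.8 and 23.7 CPM against 2.76, 3.17 and 3.22 CPM.

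Agrn, the gene of the proteoglycan agrin, had start regions that did not behave alike. Its main promoter was at 42.7 and 31.0 CPM in basal duct and 34.6, 43.5 and 31.8 CPM in luminal duct libraries, and these overlapped (-0.05 ± 0.26, edgeR adjusted p = 0.82). The internal start region, chr4:156185794-156186734, was at 14.4 and 14.5 CPM in basal duct and 1.06, 1.68 and 0.430 CPM in luminal duct libraries (3.65 ± 0.41, edgeR adjusted p = 2.9e-27). The gene was thus open in both lineages at 1 start and far less open in luminal cells at the other.

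The hemidesmosome genes did not move as 1 unit. Col17a1, the transmembrane collagen of the hemidesmosome, had a small promoter peak that was close to absent in luminal cells: 9.80 and 10.3 CPM in basal duct, and 0, 0.560 and 1.07 CPM in luminal duct libraries (4.10 ± 0.62, edgeR adjusted p = 2.7e-22). Itgb4, its integrin partner, was at 38.1 and 35.0 CPM in basal duct and 29.5, 23.1 and 20.8 CPM in luminal duct libraries (0.52 ± 0.16, edgeR adjusted p = 0.0042). Itga6, which pairs with Itgb4, was at 41.4 and 29.7 CPM in basal duct and at 35.8, 31.0 and 26.2 CPM in luminal duct libraries (0.14 ± 0.26, edgeR adjusted p = 0.48), and the lineages overlapped. With GC-bin offsets Itga6 reversed to -0.31 and the Itgb4 call ended (0.07).

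Integrin promoters differed less than matrix promoters, with a median log2 fold change of 0.66 over 15 integrin genes and 1.32 over 20 matrix genes, a contrast described here and not tested. The larger values belonged to Itga9 (1.90 ± 0.24, 18.2 ± 2.25 CPM in basal duct and 4.71 ± 1.36 in luminal duct), Itgb3 (1.75 ± 0.09, 25.0 ± 0.269 and 7.10 ± 0.761), Itga8 (1.45 ± 0.23, 38.2 ± 2.43 and 13.4 ± 3.31), the collagen-binding chain Itga1 (1.30 ± 0.09, 35.9 ± 2.14 and 13.9 ± 1.27) and Itgb8 (1.28 ± 0.10, 99.6 ± 9.68 and 39.3 ± 2.67). Itga1 shares its peak with the gene model Gm49395. Smaller differences were called for the fibronectin receptor chain Itga5 (0.90 ± 0.18, 29.5 ± 4.50 and 15.2 ± 1.92 CPM), the laminin-binding chain Itga7 (0.77 ± 0.07, 10.8 ± 0.299 and 6.09 ± 0.523), the collagen-binding chain Itga2 (0.66 ± 0.20, 28.2 ± 0.0475 and 17.2 ± 4.18) and Itgb5 (0.59 ± 0.17, 31.6 ± 5.53 and 20.2 ± 0.807). Itga3, the alpha chain of a major epithelial laminin receptor, was at 52.1 and 41.0 CPM in basal duct and 33.3, 35.3 and 26.2 CPM in luminal duct libraries (0.50 ± 0.21, edgeR adjusted p = 0.0042). Without basal duct replicate 1 the Itga3 (0.37) and Itgb5 (0.46) calls were lost. An internal Itga3 start region was at 8.77 and 7.24 CPM in basal duct and 0, 0.560 and 0.215 CPM in luminal duct libraries (4.73 ± 0.43, edgeR adjusted p = 7.1e-21).

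The promoters of some widely shared receptor genes, and of Itgb6, were not called. Itgb1, whose protein is the CD29 of the sort, was at 59.7 and 50.8 CPM in basal duct and 60.2, 62.5 and 48.8 CPM in luminal duct libraries (-0.11 ± 0.15, edgeR adjusted p = 0.54). Dag1, the gene of the laminin receptor dystroglycan, was at 45.0 and 43.1 CPM in basal duct and at 39.2, 36.8 and 30.5 CPM in luminal duct libraries (0.25 ± 0.11, edgeR adjusted p = 0.16). Itgav, the partner of several beta chains (79.4 ± 15.0 and 68.5 ± 7.08 CPM), and Itgb6, its epithelial partner (7.22 ± 1.71 and 8.04 ± 1.49 CPM), were at 0.15 ± 0.20 and -0.20 ± 0.27. An adjusted p above the threshold does not show that these levels are equal.

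**Figure D2:**
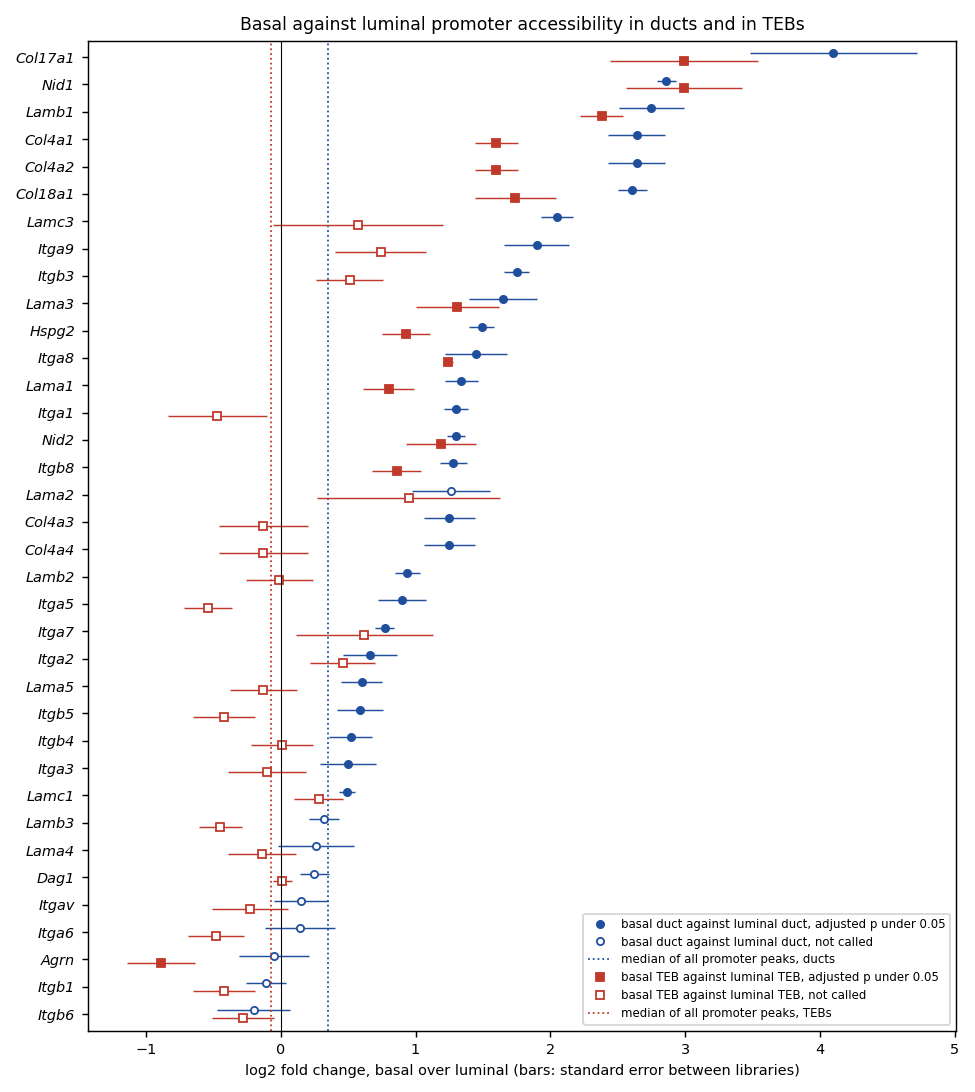
Points give the log2 fold change of basal over luminal promoter accessibility for each gene in ducts (blue) and TEBs (red), with the standard error between libraries. Filled points passed the exact test, and dotted lines are the medians of all promoter peaks (0.35 in ducts, -0.07 in TEBs). Col17a1, Nid1, Lamb1 and Col18a1 are high in both structures, while Itga1, Itga5 and Itgb5 lie above 0 in ducts and below 0, uncalled, in TEBs.

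Away from promoters the same genes carried sites of both lineages. Of 519 other peaks 271 (52.2%) were higher in basal duct cells, against 31.2% of all non-promoter peaks at genes, and 116 (22.4%) were higher in luminal duct cells, against 39.6%. The median log2 fold change was 1.04 in the set and -0.20 over all such peaks. In 27 of 36 genes both kinds of peak were present, a share that was not measured over all genes. More basal-higher than luminal-higher peaks were found in 25 genes, the reverse in 10, and equal numbers in 1. Among 404 intron, 67 exon and 48 upstream peaks, 7 lay within 500 bp of a TSS of another gene and can belong to that gene.

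Several genes were basal-higher along much of their length. Col4a2 had 31 of 38 other peaks higher in basal duct cells and 3 lower, and Col4a1 on the other strand had 18 of 25 and 1. Lama3 had 18 of 26 and 0, Hspg2 18 of 24 and 3, Col18a1 16 of 21 and 2, Lama1 11 of 13 and 2, Lamc1 17 of 28 and 2, and Itga9 22 of 34 and 3. The smallest adjusted p belonged to an exon peak of Hspg2 (perlecan), chr4:137511487-137512739, 43.3 kb from a TSS, whose centre is printed above. It was at 64.3 and 49.5 CPM in basal duct and 1.48, 2.43 and 1.07 CPM in luminal duct libraries (4.99 ± 0.33, edgeR adjusted p = 2.1e-90). A peak 1.24 kb upstream of Col18a1, chr10:77167366-77168201, was at 33.3 and 31.0 CPM against 0.848, 0.933 and 0 CPM (5.61 ± 0.64, edgeR adjusted p = 5.6e-69). Neither overlapped between lineages. Peaks near the start shared by Col4a1 and Col4a2 count for both genes.

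In some other genes luminal-higher sites outnumbered basal-higher ones although the promoter was basal. The Nid1 promoter was among the most basal-biased of the set, but 10 of its 18 other peaks were higher in luminal duct cells and 4 in basal duct cells. The clearest was an intron peak at chr13:13471180-13471966, 34.0 kb from the TSS and printed above, at 1.71 and 1.54 CPM in basal duct and 21.4, 30.2 and 25.6 CPM in luminal duct libraries (-4.03 ± 0.15, edgeR adjusted p = 5.0e-45). Among the 10 genes with more luminal-higher peaks, 6 had a promoter that was higher in basal duct cells. These were Nid1, Itga2, Itga7, Itga5 (2 against 1 of 7), Col4a4 (5 against 4 of 12) and Lamb2 (1 against 0 of 2). The Itga2 and Itga7 promoter calls ended with GC-bin offsets and with TMM factors from promoter peaks. The matching share over all genes was not measured. Luminal-higher peaks also outnumbered basal-higher ones in Itgav (8 against 2 of 13), Itga2 (7 against 3 of 13), Itga7 (5 against 0 of 6), Itgb6 (6 against 4 of 15), Lama4 (6 against 3 of 12) and Lama2 (8 against 4 of 16). In Itga6 the numbers were equal (7 and 7 of 23). Itgb6, whose product activates latent TGF-beta as a dimer with alpha v, had an intron peak at chr2:60694441-60695162, 21.1 kb from a TSS and printed above. It was at 3.19 and 3.85 CPM in basal duct and 42.4, 47.8 and 35.7 CPM in luminal duct libraries (-3.65 ± 0.18, edgeR adjusted p = 1.2e-54).

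**Figure D3:**
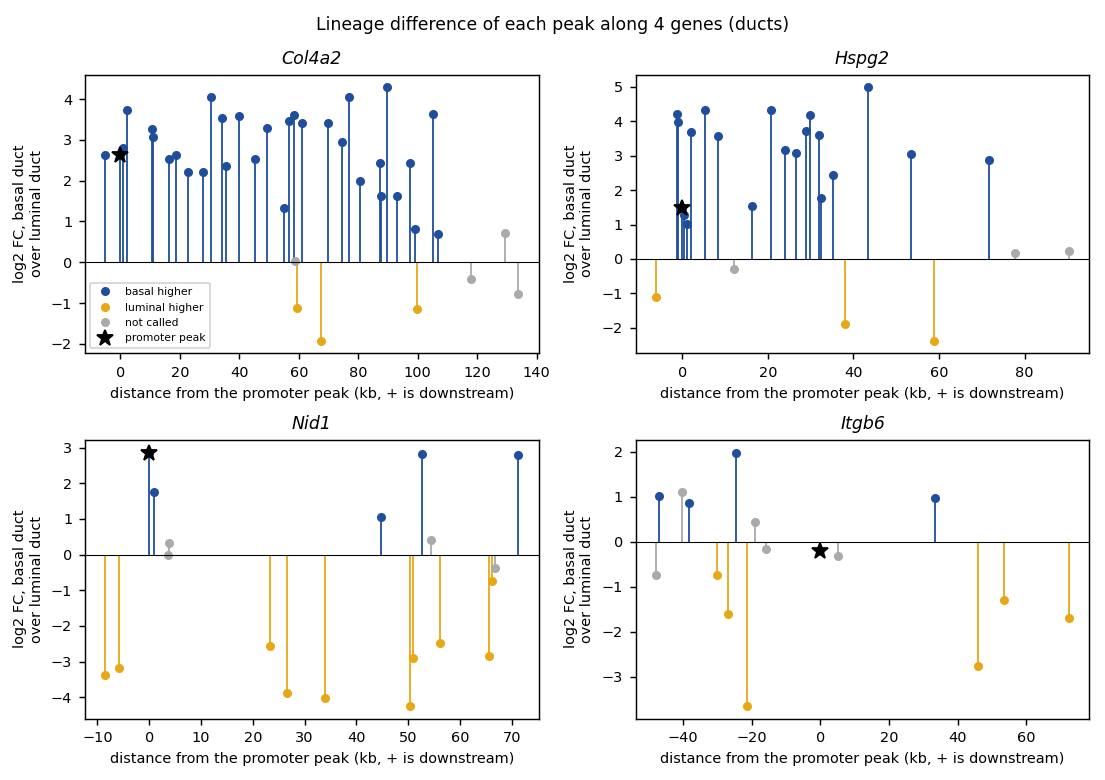
Each stem is 1 peak of Col4a2, Hspg2, Nid1 or Itgb6, placed by its distance from the gene's promoter peak (kb) and its log2 fold change of basal duct over luminal duct. Col4a2 and Hspg2 are basal-higher along much of their length, Nid1 has a basal-higher promoter beside 10 luminal-higher peaks, and the Itgb6 promoter was not called between peaks of both signs.

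**Figure D4:**
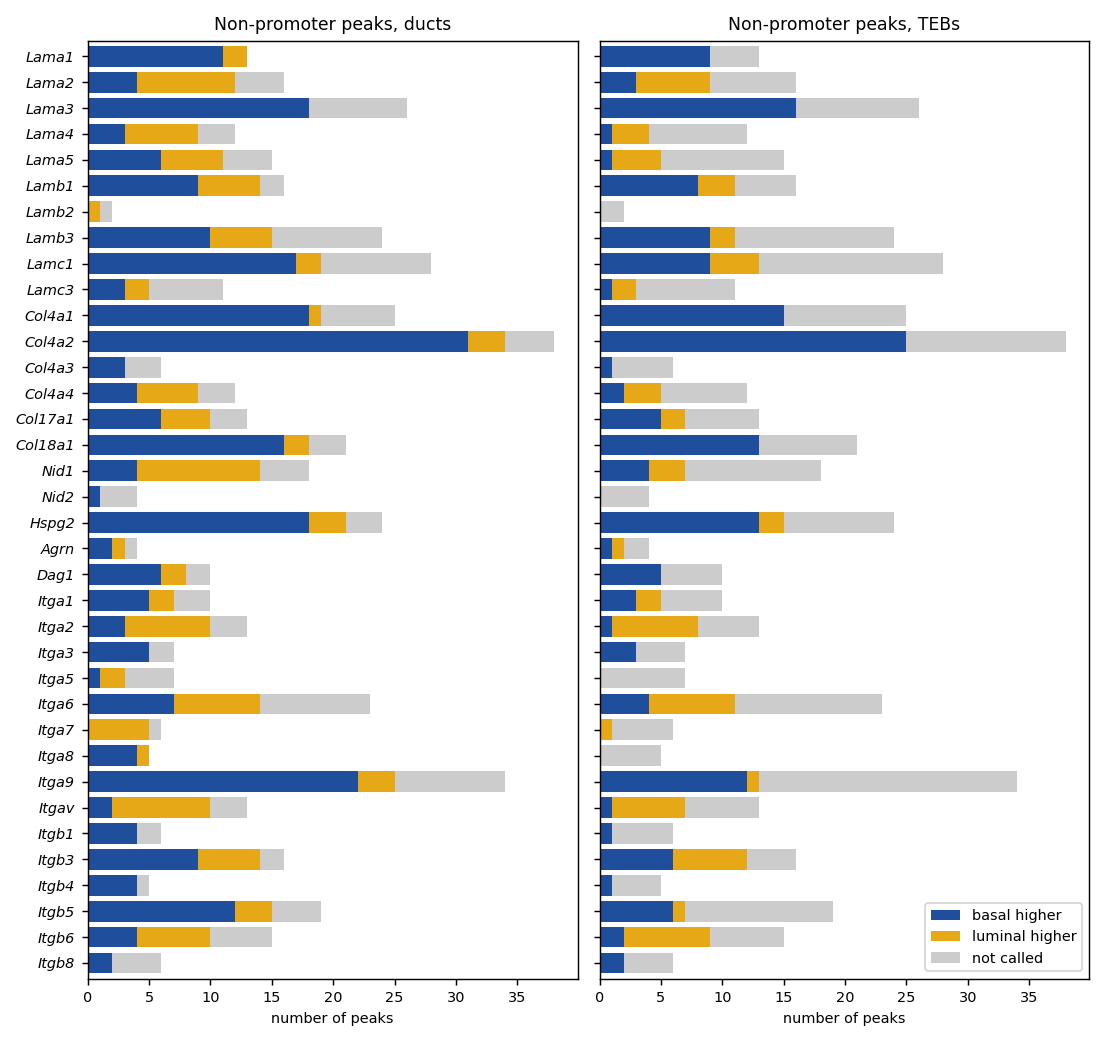
Bars count each gene's non-promoter peaks by call (basal higher, luminal higher, not called) in ducts (left) and TEBs (right). Col4a2 has 31 basal-higher peaks in ducts and 25 in TEBs, and Nid1 has 10 luminal-higher peaks in ducts and 3 in TEBs.

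Motif matches were set beside the direction of the peaks. In windows of 300 bases at the peak centre, over 512 other peaks more than 500 bp from any TSS, a FOX match lay in 13.8% of luminal-higher peaks (16 of 116) and 1.87% of basal-higher peaks (5 of 268), against 13.0% and 2.54% over all non-promoter peaks at genes. An AP-1 match lay in 37.1% and 27.2% (37.2% and 21.9% over all), and a TEAD match in 20.7% and 32.1% (18.9% and 28.1%). The SRF CArG box, the element of contractile genes, was found in 5.22% of basal-higher peaks (14 of 268) and 2.59% of luminal-higher peaks (3 of 116), against 2.22% and 1.31% over all such peaks. The p63/p53 half-site lay in 14.9% of basal-higher and 9.48% of luminal-higher peaks (14.3% and 11.1% over all). The GC box lay in 10.4% of basal-higher and 12.1% of luminal-higher peaks, while over all peaks the order was the other way (13.1% and 6.26%). A CCAAT match lay in 25.7% and 31.0% (29.7% and 32.1% over all) and a RUNX match in 23.1% and 22.4% (23.1% and 26.3%). None of these shares was tested.

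The lineages were also set against each other at the growing tip. Matrix promoters were called more often than integrin promoters, a contrast that was not tested. Of 45 promoter peaks 15 (33.3%) were higher in basal TEB libraries, against 10.4% of all promoter peaks, and 1 (2.22%) was lower, against 14.7%. The median was 0.51 in the set and -0.07 over all promoter peaks. By gene 12 of 36 were higher, namely Lamb1, Lama1, Lama3, Col4a1 and Col4a2 (1 peak), Col17a1, Col18a1, Nid1, Nid2, Hspg2, Itga8 and Itgb8. So 10 of 20 matrix genes and 2 of 15 integrins were called. Without luminal TEB replicate 2 the calls of Lama1 (0.73) and of Hspg2 (0.83) ended, and that of Lama1 also ended without luminal TEB replicate 3 (0.70) and with DESeq2 (0.76).

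The internal Col18a1 start was at 14.3, 17.2 and 25.3 CPM in basal TEB and 3.29, 1.64 and 1.65 CPM in luminal TEB libraries (3.08 ± 0.35, edgeR adjusted p = 2.0e-13). Lamb1 was at 21.5, 28.6 and 22.6 CPM against 5.21, 4.10 and 4.61 CPM (2.38 ± 0.16, edgeR adjusted p = 3.2e-12). Neither overlapped between lineages, as in ducts. Lama3 (22.9 ± 5.60 against 9.35 ± 2.68 CPM, 1.31 ± 0.31, edgeR adjusted p = 1.2e-04) and Col17a1 kept a basal excess. Col17a1 was at 5.11, 9.39 and 6.65 CPM in basal TEB and 1.37, 1.09 and 0 CPM in luminal TEB libraries (2.99 ± 0.55, edgeR adjusted p = 1.9e-06).

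The Agrn starts differed from each other in TEBs as well. The internal start was at 9.71, 17.2 and 19.9 CPM in basal TEB and 1.92, 2.19 and 0.988 CPM in luminal TEB libraries (3.16 ± 0.39, edgeR adjusted p = 3.4e-12). The main start was lower in basal TEB cells, at 17.9, 23.5 and 13.7 CPM against 28.8, 36.6 and 37.9 CPM (-0.89 ± 0.25, edgeR adjusted p = 0.0032). Both differences were free of overlap and opposite in sign within 1 gene.

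Of the genes described by name, the laminin receptor chains and Lamb3 were not called between TEB lineages. Itga6 was at 22.0, 25.0 and 16.4 CPM in basal TEB and 29.6, 34.2 and 25.0 CPM in luminal TEB libraries (-0.48 ± 0.21, edgeR adjusted p = 0.13). Itgb4 had 25.2 ± 5.29 and 25.3 ± 4.47 CPM (0.01 ± 0.23), Itga3 28.7 ± 8.44 and 31.1 ± 4.22 CPM (-0.10 ± 0.29), Itgb1 35.6 ± 7.01 and 47.9 ± 9.39 CPM (-0.42 ± 0.23), Dag1 32.9 ± 2.10 and 32.8 ± 0.537 CPM (0.01 ± 0.07) and Lamb3 24.5 ± 4.09 and 33.6 ± 3.02 CPM (-0.45 ± 0.16, edgeR adjusted p = 0.14). The median member promoter held 25 to 41 counts in a basal TEB library, against 161 to 237 in a basal duct library.

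Non-promoter peaks kept both signs. Of 519, 180 (34.7%) were higher in basal TEB cells, against 16.8% of all such peaks, and 73 (14.1%) in luminal TEB cells, against 22.6%. Of the 271 peaks that were basal-higher in ducts 162 (59.8%) were also basal-higher in TEBs, where they made up 90.0% of 180. Of the 116 luminal-higher ones 60 (51.7%) were also luminal-higher in TEBs, 82.2% of 73. The matching shares over all such peaks, and that of the opposite calls given below, were not measured. An intron peak of Hspg2, chr4:137488834-137489745, was at 37.8, 38.4 and 36.8 CPM in basal TEB and 3.29, 1.64 and 0.988 CPM in luminal TEB libraries (4.19 ± 0.36, edgeR adjusted p = 6.1e-31). The Col4a2 intron peak printed above, chr8:11342866-11343528, was at 28.1, 31.3 and 26.6 CPM against 1.37, 0.546 and 2.63 CPM (4.26 ± 0.42, edgeR adjusted p = 6.6e-26). On the luminal side, the Itgb6 intron peak printed above was at 4.09, 5.09 and 4.43 CPM in basal TEB and 36.2, 42.6 and 36.9 CPM in luminal TEB libraries (-3.06 ± 0.11, edgeR adjusted p = 1.0e-20). A Nid1 exon peak, chr13:13463906-13464508, was at 0.511, 0.391 and 2.66 CPM against 17.6, 22.7 and 17.1 CPM (-3.96 ± 0.54, edgeR adjusted p = 1.9e-16). In 3 peaks the calls had opposite signs in ducts and TEBs, and 2 of them, in Col4a4 and Lama1 introns, were mostly repeat sequence (100% and 74.2% soft-masked). These TEB calls rested on basal TEB replicate 1: without it the log2 fold change fell from 0.74 to 0.30 for the Lama1 peak, from 1.34 to 0.72 for the Col4a4 peak and from 0.85 to 0.14 for the third, in a Lamb3 intron, and none was called. The TEB groups overlapped for the Col4a4 and Lamb3 peaks, and the Col4a4 call ended in 8 of 12 alternatives. The duct call of the Lamb3 peak fell from -0.49 to -0.08 without basal duct replicate 3.

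Basal cells of TEBs and ducts were compared next, to ask whether the basement membrane genes change along the duct. Their promoters were lower in basal TEB cells, but so were promoters in general. Of 45 promoter peaks 11 (24.4%) were lower, against 31.9% of all promoter peaks, and 0 were higher, against 0.673%. The count higher at an unadjusted p under 0.05 was also 0, and at the adjusted threshold DESeq2, the quasi-likelihood test and the other scalings gave 0. The median log2 fold change, -0.65, was that of all promoter peaks (-0.64). The share of counts in promoter peaks was itself 31.1% to 35.7% in basal TEB and 40.0% to 42.7% in basal duct libraries, and with TMM factors taken from promoter peaks only 1 member promoter was lower and the median was 0.02. Libraries also decided the count, which was 1 without basal duct replicate 1, 2 without basal duct replicate 3 and 18 without basal TEB replicate 2.

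Itga1, a collagen receptor chain, was the exception that held. Its promoter, chr13:115101139-115102447, was at 37.4 and 34.4 CPM in basal duct and 6.65, 14.9 and 9.75 CPM in basal TEB libraries (-1.76 ± 0.33, edgeR adjusted p = 3.4e-06), and it was the only gene of 11 that kept its call under all the scalings and without each library in turn. The shared Col4a1 and Col4a2 start was at 35.8 and 26.7 CPM in basal duct and 15.8, 12.5 and 12.4 CPM in basal TEB libraries (-1.21 ± 0.26, edgeR adjusted p = 0.0015). Itga5 was at 32.7 and 26.3 CPM against 10.7, 16.0 and 12.4 CPM (-1.17 ± 0.24, edgeR adjusted p = 0.0023). Neither group pair overlapped, but both calls ended without basal duct replicate 1 (-0.95 and -0.98) and with promoter-based TMM factors (-0.54 and -0.51). The others called were the shared Col4a3 and Col4a4 start (-1.31 ± 0.25), Nid2 (-1.01 ± 0.15), Agrn (-1.0 ± 0.34), Itga9 (-1.33 ± 0.32), Itgb5 (-1.01 ± 0.28) and Itgav (-0.78 ± 0.34), together with a second start region each of Itgb5 and Itga3 (-1.11 ± 0.04 and -1.58 ± 0.30). Among the genes described by name, Lama3 (-0.66 ± 0.21), Lamb3 (-0.62 ± 0.19), Itga6 (-0.75 ± 0.32), Itgb4 (-0.52 ± 0.19), Itga3 (-0.69 ± 0.32), Itgb1 (-0.63 ± 0.21), Dag1 (-0.42 ± 0.08) and Col17a1 (-0.49 ± 0.24) were not called and lay near the promoter median.

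**Figure D5:**
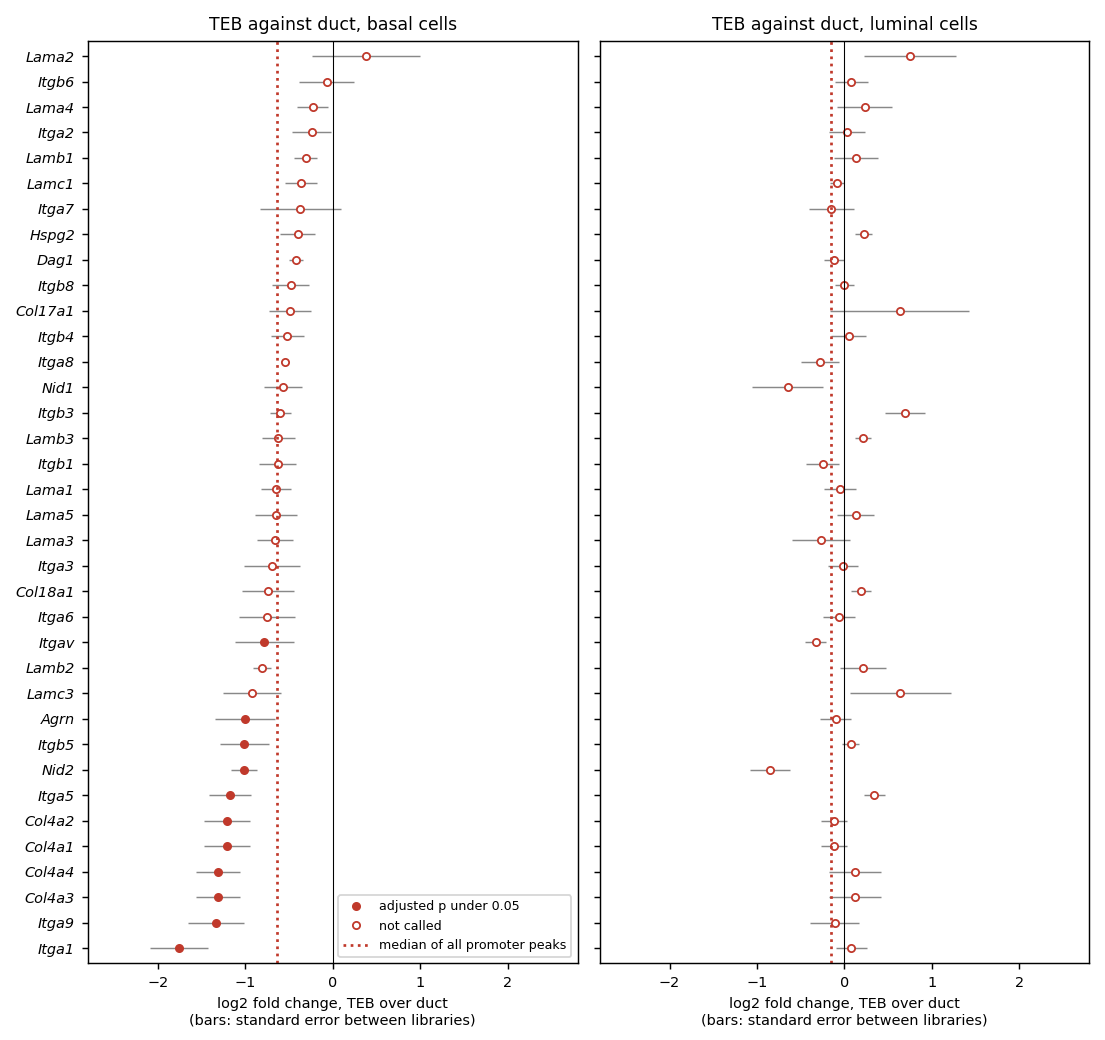
Points give the log2 fold change of TEB over duct for each gene's promoter peak in basal (left) and luminal (right) cells, with the standard error between libraries. Filled points passed the exact test, and dotted lines mark the median of all promoter peaks (-0.64 in basal and -0.15 in luminal cells). In basal cells the genes scatter around that median with Itga1 lowest, and in luminal cells none was called.

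Other peaks of the set changed in both directions between basal TEB and basal duct cells. Of 519, 27 (5.20%) were higher in basal TEBs, against 6.47% of such peaks, and 56 (10.8%) were lower, against 7.19%. Hspg2 held 10 of the 56. An intron peak of Itga9, chr9:118741212-118741720, was at 10.0 and 11.6 CPM in basal duct and 0.511, 0.783 and 2.66 CPM in basal TEB libraries (-2.99 ± 0.52, edgeR adjusted p = 9.6e-07). An Itgb3 intron peak, chr11:104624634-104625398, was at 22.8 and 19.4 CPM against 5.11, 8.61 and 3.99 CPM (-1.81 ± 0.34, edgeR adjusted p = 2.4e-05), and this was not called once basal duct replicate 1 was left out (-1.67). On the other side, a Lama1 intron peak, chr17:67741291-67741654, was at 58.0 and 50.5 CPM in basal duct and 292, 137 and 132 CPM in basal TEB libraries (1.78 ± 0.39, edgeR adjusted p = 5.2e-06), and a Col4a4 intron peak, chr1:82551889-82552268, was at 0.342 and 0.308 CPM against 11.2, 2.35 and 5.76 CPM (4.15 ± 0.60, edgeR adjusted p = 1.9e-05). Both of the latter are the repeat-rich peaks named above, and both were highest in the basal TEB library with the largest share of counts in repeat peaks (16.2%). Of the 27 TEB-higher peaks 7 (25.9%) were mostly soft-masked, against 44.1% of all TEB-higher peaks of this class, and of the 56 lower peaks 0 were. Whether this share bears on the calls was not tested. Without basal duct replicate 1 the counts were 3 higher and 2 lower, without basal duct replicate 3 they were 5 and 11, and without basal TEB replicate 3 the lower count was 36.

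Luminal cells of TEBs and ducts differed little. Of 45 promoter peaks 0 were higher and 0 lower (edgeR exact test), against 0.114% and 1.26% of all promoter peaks. At an unadjusted p under 0.05 the counts were 2 and 2, and the other tools gave 0 except for 1 lower in the fit with a replicate block. Nid2 had 12.7, 12.9 and 12.7 CPM in luminal duct and 8.78, 4.92 and 7.57 CPM in luminal TEB libraries, which did not overlap, and missed the threshold (-0.85 ± 0.23, edgeR adjusted p = 0.067). Of 519 other peaks 4 (0.771%) were higher in luminal TEBs, against 0.334%, and 1 (0.193%) was lower, against 0.287%.

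All 4 peaks higher in luminal TEBs lay at beta integrin genes. A peak 9.60 kb upstream of Itgb4, chr11:115964874-115965345, which overlaps the neighbouring gene Sap30bp, was at 1.27, 0.746 and 1.07 CPM in luminal duct and 4.12, 4.92 and 4.61 CPM in luminal TEB libraries (2.12 ± 0.17, edgeR adjusted p = 0.0042). The other three were in Itgb3, of which an exon peak at chr11:104666847-104667465 was at 8.06, 13.2 and 7.52 CPM against 16.7, 21.9 and 14.5 CPM (0.87 ± 0.30, edgeR adjusted p = 0.025), and 2 intron peaks were at 1.26 ± 0.14 and 1.04 ± 0.31. The groups did not overlap, but the 3 calls in Itgb3 each ended without any 1 of at least 4 of the 6 libraries, among them luminal duct replicate 1 (0.76 for the exon peak) and luminal TEB replicate 2 (0.69). The peak lower in luminal TEBs was the Nid1 intron peak printed above, at 13.4, 20.8 and 12.2 CPM against 21.4, 30.2 and 25.6 CPM in luminal ducts (-0.73 ± 0.27, edgeR adjusted p = 0.035), a call that also ended with loess offsets (-0.62) with promoter-based TMM factors (-0.57) and without luminal duct replicate 2 or 3 (-0.59 and -0.72) or luminal TEB replicate 1 or 3 (-0.61 and -0.59).

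The interaction of lineage and structure was tested over all 11 libraries, to ask where the TEB to duct difference itself differed between lineages. Of the 43 promoter peaks with enough counts 8 (18.6%) had a lower value in basal cells, against 13.9% of promoter peaks, and 0 a higher one, against 1.08% (edgeR quasi-likelihood test, also 0 at an unadjusted p under 0.05). They were Itga1 (-1.75, edgeR adjusted p = 4.3e-04), Itga5 (-1.43, adjusted p = 0.0017), Itgb3 (-1.22, adjusted p = 0.014), Itgb5 (-1.0, adjusted p = 0.019), the shared Col4a3 and Col4a4 start (-1.36, adjusted p = 0.045), the main Agrn start (-0.83, adjusted p = 0.046), Lamb3 (-0.75, adjusted p = 0.049) and the internal Itga3 start (-3.50, adjusted p = 0.0088). At the internal Itga3 start, luminal duct levels were close to absent, as given above, so the size of that value is poorly measured. By main promoter, 4 of 15 integrin and 4 of 20 matrix genes were called. The strongly basal promoters of Lamb1 (-0.36), Nid1 (0.16), Col18a1 (-0.85) and Col17a1 (-1.06) were not called. The main Agrn, Itgb3, Itgb5, Lamb3 and shared Col4a3 and Col4a4 calls ended with DESeq2, loess or GC-bin offsets and promoter-based TMM factors. There the values ran closer to 0. The Lamb3 call also ended without any 1 of 10 libraries, the Col4a3 and Col4a4 call without any 1 of 8 and the Agrn call without any 1 of 7. Of 458 other peaks 15 (3.28%) were higher, against 6.97%, and 39 (8.52%) lower, against 5.40%.

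The peak upstream of Itgb4 had TEB to duct differences of opposite sign in the lineages. It was at 9.91 and 10.3 CPM in basal duct and 3.58, 5.48 and 0.886 CPM in basal TEB libraries (-1.58 ± 0.65, edgeR adjusted p = 0.0048), while it was higher in luminal TEBs than in luminal ducts as given above (interaction -3.62, edgeR adjusted p = 9.4e-05). The basal call ended with DESeq2 (-1.47), with promoter-based TMM factors (-0.95) and without basal duct replicate 1 (-1.58), basal duct replicate 3 (-1.57) or basal TEB replicate 3 (-1.04), and the interaction call held in 17 of 17 alternatives. The Itgb3 intron peak that was lower in basal TEBs was at 5.94, 6.34 and 6.23 CPM in luminal duct and 6.86, 10.9 and 11.9 CPM in luminal TEB libraries (-2.40, edgeR adjusted p = 1.1e-04). Positive values were found for the repeat-rich Lama1 intron peak (1.45, edgeR adjusted p = 7.7e-04) and for an Agrn intron peak, chr4:156192296-156193059, between the start regions. That peak was at 26.3 and 17.7 CPM in basal duct, 30.2, 50.5 and 40.8 CPM in basal TEB, 9.33, 8.96 and 9.46 CPM in luminal duct and 6.31, 5.19 and 8.23 CPM in luminal TEB libraries (1.46, edgeR adjusted p = 0.0040), and this was not called once basal duct replicate 3 was left out (1.17). A small Lamb1 intron peak, chr12:31280869-31281166, had 0 counts in both basal duct libraries, where 3 counts over the group would be 0.197 CPM. Basal TEB libraries had 1.02, 1.57 and 3.10 CPM, from only 2, 4 and 7 counts, with a mean 9.65-fold above that floor. The basal TEB against basal duct call ended without basal duct replicate 1, basal duct replicate 3 or basal TEB replicate 3.

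The wider machinery was described by its promoters in the same way. Of 21 further basement membrane genes, all with a promoter peak, 16 were higher and 0 lower in the basal cells of ducts (median 1.46), against 43.8% and 12.0% of all promoter peaks (median 0.35). Between the TEB lineages 11 were higher and 1 lower, against 10.4% and 14.7%. In basal TEBs 9 were lower and 0 higher than in basal ducts, against 31.9% and 0.673%, a comparison in which promoter values moved with the scaling as given above. Sparc, a collagen-binding matrix protein, was at 3.38 ± 0.17 in ducts and 2.76 ± 0.27 in TEBs, and Frem2, of the Fras1 complex under epithelia, at 2.20 ± 0.14 and 1.80 ± 0.23. The gene lower in basal than in luminal TEBs was Ntn4, a laminin-related netrin (-1.28 ± 0.51), which was also lower in basal TEBs than in basal ducts (-2.46 ± 0.58). Of 6 other matrix receptors with a promoter peak (Ddr2 had none) 5 were higher in basal duct cells, against 43.8% of all promoter peaks. Among them were the collagen receptor Ddr1 (1.18 ± 0.21) and the laminin receptor Bcam (1.24 ± 0.22). Bcam alone was called between the TEB lineages (0.76 ± 0.15), where 10.4% of all promoter peaks were higher. Of 16 measured genes of the hemidesmosome plaque and of focal adhesions, the intracellular side of the integrins, 4 were higher and 2 lower in basal duct cells. The shares over all promoter peaks were 43.8% and 12.0%. The median was -0.12 against 0.35 over all promoter peaks, a contrast that was not tested. Fermt1 (1.15 ± 0.11) and Parva (1.29 ± 0.16) were higher, and Lims1 (-0.60 ± 0.13) and Pxn (-0.34 ± 0.09) lower. In TEBs 0 were higher and 3 lower in basal cells, against 10.4% and 14.7% of all promoter peaks. Those lower included Pxn (-1.17 ± 0.07) and Dst (-0.76 ± 0.20). In basal TEBs 7 were lower and 0 higher than in basal ducts, against 31.9% and 0.673% of all promoter peaks.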

How the data were processed

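ATAC-seq counts of 11 libraries were used. Per the labels and the study's methods, the authors trimmed reads, mapped them to mm10 with Bowtie2 (the labels name release 2.3.4.3 and the study's methods a different one), removed duplicates, called MACS2 peaks per population with replicates pooled, merged these, removed blacklisted regions and deposited raw read counts per peak from SeqMonk. Because peaks were called on pooled replicates, a peak's presence carries no replicate information.

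Peaks were assigned to protein-coding genes of the GENCODE basic annotation (41421 TSSs, 21840 genes) as promoter (within 500 bp) or other (in the gene body or within 10 kb). Each pair of groups was tested over all peaks with a count by the 2-sided exact test of edgeR 4.0.16 (R 4.3.3) with TMM factors and dispersions within the pair, and the interaction by the quasi-likelihood test over all libraries after filterByExpr. P-values were adjusted by Benjamini-Hochberg at 0.05 over all peaks tested. Levels are CPM with TMM factors over 11 libraries, and standard errors come from log2 CPM (prior count 2). The fold changes are those of the tests. At peaks with few counts in a group the standard error can therefore understate the spread of the fold change beside it. Tests were checked on simulated counts. Alternatives used DESeq2 1.42.0, other offsets (20 GC bins), a filter, a threshold of 0.01, a promoter window of 1000 bp and a replicate block.

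Every gene was named by role. Per-library values are given for up to 3 promoter and 2 other called peaks per direction and pair with the smallest p and no overlap between groups, for up to 3 interaction peaks per sign, and for Lama3, Lamb3, Itga6, Itgb4, Itga3, Itgb1, Dag1 and Col17a1. Peaks called in luminal TEBs, internal start regions and peaks with opposite calls were added after their values were seen. The genes and all lists were chosen with earlier results of these data known.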

Additional observations from a re-analysis of the deposited data

Results flagged for a closer look

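These peaks had a TEB to duct difference that itself differed between basal and luminal cells by the edgeR quasi-likelihood interaction test (adjusted p under 0.05), given as the basal minus the luminal log2 difference. Among promoters, the values were -1.75 for Itga1, -1.43 for Itga5 and -3.50 for the internal Itga3 start, and these calls held in each of the 17 alternatives run. At that Itga3 start luminal duct levels were close to absent, so the size of its value is poorly measured. Its basal TEB against basal duct call ended in 6 of 12 alternatives. Values of -1.22 for Itgb3, -1.0 for Itgb5, -1.36 for the shared Col4a3 and Col4a4 start, -0.83 for the main Agrn start and -0.75 for Lamb3 were also called. Of the 17 alternatives, 14 ended the Lamb3 call, 13 the Col4a3 and Col4a4 call, 11 the Agrn call (7 of them leaving out 1 library), 7 the Itgb5 call and 6 the Itgb3 call.

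Among other peaks, negative values were found for the peak upstream of Itgb4 (-3.62), for 3 Itgb3 intron peaks (-2.40, -1.84 and -1.46) and for an Itga9 intron peak (-3.78). The Itgb3 call at -1.46 ended in 11 of 17 alternatives, 8 of them leaving out 1 library, and the other negative calls held in all 17. Positive values were found for intron peaks of Agrn (1.46), Lama1 (1.45), Col4a4 (3.51), Lamb3 (1.34) and Lamb1 (6.88). The Lamb1 value was fitted against 0 counts in both basal duct libraries and is no bound. The Lamb3 value fell to 0.63 without basal TEB replicate 1 and to 0.93 without basal duct replicate 3, and was not called in either case, without luminal duct replicate 3 (1.16) or with DESeq2 (1.53). The Agrn call ended without basal duct replicate 3 (1.17) and the Col4a4 call without basal duct replicate 1 (3.50). The Lama1, Col4a4 and Lamb3 peaks were 74.2%, 100% and 48.8% soft-masked, and they were the 3 peaks with opposite lineage calls in ducts and TEBs. Without basal TEB replicate 1 none of the 3 was called in TEBs (0.30, 0.72 and 0.14), and without basal duct replicate 3 the Lamb3 peak was not called in ducts (-0.08).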

How the results depend on the processing

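Among promoters and among other peaks of the set, basal-higher calls outnumbered luminal-higher ones in ducts and in TEBs under each alternative. The share called over all peaks of the class was not measured under the alternatives. TEB against duct counts in basal cells moved with scaling and libraries. The cause was not tested. Over single peaks, 3794 alternative values kept direction and call, 237 lost and 68 gained a call, and 2 reversed, both with GC-bin offsets in ducts: Itga6 (-0.31) and Itgb6 (0.69) promoters.

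Promoters lower in basal than luminal ducts numbered 3 with GC-bin offsets, 2 with promoter-based TMM factors and 1 with the 1000 bp window. Other peaks lower in basal than luminal TEBs numbered 47 with DESeq2 and 47 at 0.01. Promoters lower in basal TEBs than ducts numbered 5 with DESeq2, 4 with filterByExpr, 3 with GC-bin offsets, 2 with loess offsets and 1 with promoter-based TMM factors. Other peaks higher there numbered 44 with filterByExpr, 49 with loess offsets, 63 with promoter-based TMM factors and 14 at 0.01, and lower 19 with DESeq2, 27, 30, 8 and 30. In luminal cells, other peaks higher in TEBs numbered 1 with DESeq2, 10 with filterByExpr, 13 with promoter-based TMM factors and 1 at 0.01, and lower 2 with filterByExpr and 0 with DESeq2, loess offsets, promoter-based TMM factors and 0.01. The interaction gave 31 higher with promoter-based TMM factors and 4 at 0.01, and lower 24 with DESeq2, 31 with loess offsets, 24 with promoter-based TMM factors and 20 at 0.01.

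Deviations from the group mean were weakly correlated between same-numbered libraries (-0.000629 to 0.0781 over 126832 peaks). Between the luminal groups the correlations were 0.0374, 0.0781 and 0.0602. Such correlations cannot show whether same-numbered libraries share mice. With a replicate block, 37 promoters were higher in basal than luminal ducts, 19 were lower in basal TEBs than basal ducts, 1 was lower in luminal TEBs, and 7 other peaks were higher and 2 lower in luminal TEBs.

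Leaving out each library in turn gave, for promoters, 34 to 36 higher and 0 to 0 lower in ducts, 12 to 15 higher and 1 to 5 lower in TEBs (5 without basal TEB replicate 2), 0 to 0 higher and 1 to 18 lower between basal groups, and 0 to 0 either way between luminal groups. For other peaks it gave 246 to 269 higher and 89 to 113 lower, 135 to 177 higher and 45 to 67 lower (45 without luminal TEB replicate 2), 3 to 29 higher and 2 to 64 lower, and 1 to 3 higher and 0 to 1 lower. The interaction gave 5 to 23 higher (5 without basal duct replicate 1, 7 without basal duct replicate 3, 9 without luminal duct replicate 3 and 23 without basal TEB replicate 2) and 21 to 67 lower (21 without basal duct replicate 1). A group left with 1 library was assumed to vary like the other group.

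Over all peaks, the share of calls that were higher moved from 46.5% to 36.5% in ducts with promoter-based TMM factors, and from 45.8% to 90.2% between basal groups, where the median of all peaks moved from 0.02 to 0.67. With 2 basal duct libraries and shallow basal TEB libraries, differences in small peaks are poorly measured. P-values set a group difference against a spread between these libraries that was estimated with information shared across peaks.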
